A study of Mus musculus with 8 samples.

Results

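The alpha crystallins and their relatives are small heat shock proteins, chaperones that bind unfolding proteins without using ATP and hold them in a soluble state until ATP-dependent chaperones such as Hsp70 can refold them. They share an alpha-crystallin domain and assemble into large oligomers. In the vertebrate eye, Cryaa and Cryab are packed into the fiber cells of the lens as structural proteins, while Cryab and several Hspb proteins are also made in glia, neurons, muscle and vessel walls, where stress can raise some of them.

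The members were 8 genes, Cryaa, Cryab, Hspb1, Hspb2, Hspb3, Hspb6, Hspb7 and Hspb8, given by name, and a probe belonged to a member when its transcript accession on the array mapped to that gene. They were 8 of 22911 genes named on the array and had 11 of its 56605 probes, and 9 probes of 7 genes were among the 37085 probes retained as well above background. The question was which members went with lens genes from array to array and which behaved like genes of the retina itself. Whole retinas of aged mice were studied, 4 samples labelled homozygous Mrp4 knockout (Mrp4-null below) and 4 labelled wild-type, 46 to 55 weeks old by the labels, with the knockout kept on the C57BL/6J background by the methods. Mrp4, the product of Abcc4, is a membrane pump that exports drugs and signaling molecules from cells. Each sample was hybridized to 1 one-color Agilent oligonucleotide array of the same slide. Tissue came from 3 mice by the methods, and it is unclear if they were pooled per sample, so the p-values below measure the spread between these samples, which may be technical in part. In whole tissue, fewer cells of a type and less RNA per cell cannot be told apart.

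Some facts of the arrays touch every comparison. The Abcc4 probe read 10.64 to 10.84 log2 units under the Mrp4-null label and 6.54 to 7.13 under the wild-type label. Such signal in samples labelled as knockouts goes against the label unless that probe lies outside the deleted part. The sources used here do not settle this point. Why the level was higher there was not tested, and the paper lists the same probe first among its upregulated ones. Directions below are therefore those of the labels. Probes of the Y chromosome were above background on wild-type arrays 2, 3 and 4 and on no array labelled Mrp4-null, and the probe of Xist, a transcript of female cells, was detected in every sample labelled Mrp4-null as well as on wild-type arrays 1 and 2. Wild-type array 2 thus held both. The sex of the animals therefore differed in part with genotype, and each genotype filled its own row of the slide, so that row and genotype cannot be told apart. Rod genes were bright on all 8 arrays, with a mean of 16.38 to 16.50 log2 units over 11 genes. Lens genes were also detected. The lens score, the mean normalized log2 signal of 18 lens genes that are not members, was 6.20, 5.92, 6.98 and 7.67 on arrays 1 to 4 labelled Mrp4-null and 7.99, 8.82, 6.79 and 7.55 on wild-type arrays 1 to 4. It spanned 2.91 log2 units, or 7.50-fold, with the lowest arrays both labelled Mrp4-null and the highest both wild-type, and the groups overlapped. The difference of the genotype means was -1.10 (exact two-sided permutation p = 0.143, smallest possible p 0.0286). Of the 18 genes 17 passed the filter in both genotypes, and Mip passed through the wild-type arrays only, which favors a lower value under the Mrp4-null label. The difference was -1.01 with the filter in both genotypes, -0.93 with no filter and -0.77 with the normexp background correction, each with exact permutation p = 0.143. Where the RNA of these lens genes came from was not tested. All levels below are log2 of the processed signal after quantile normalization, 1 value per probe and array. Levels of different genes were not compared, since brightness per transcript differs between probes.

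Promoter sequences are printed for Cryaa, which followed the lens genes in the fits described further on, and for Hspb1 and Hspb6, whose slopes lay in the range of retinal genes. Sequences are the 250 bases before the start of transcription from RefSeq on build GRCm38.p6, 5′ to 3′ on the strand of the gene, and the table held 7 windows of 6 members, without Cryab and Hspb2. The half-site of the Maf recognition element, TGCTGA on either strand, is bound by Maf factors such as those that drive crystallin genes in lens, and the heat shock element was searched as GAANNTTC, the palindromic core bound by heat shock factors. Capitals mark the half-site in Cryaa (chr17:31677681-31677930, plus strand) and the heat shock element in Hspb1 (chr5:135887669-135887918, plus strand) and at the second start of Hspb6 (chr7:30553051-30553300, plus strand).
Cryaa: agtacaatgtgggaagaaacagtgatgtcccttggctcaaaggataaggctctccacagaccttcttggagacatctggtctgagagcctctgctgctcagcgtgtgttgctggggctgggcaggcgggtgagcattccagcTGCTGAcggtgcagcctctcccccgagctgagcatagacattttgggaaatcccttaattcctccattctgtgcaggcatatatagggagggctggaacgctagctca
Hspb1: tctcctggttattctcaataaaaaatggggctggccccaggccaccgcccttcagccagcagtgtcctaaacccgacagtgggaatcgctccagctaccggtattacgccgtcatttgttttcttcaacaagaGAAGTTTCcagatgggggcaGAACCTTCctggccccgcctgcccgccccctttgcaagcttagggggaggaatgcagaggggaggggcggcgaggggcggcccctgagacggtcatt
Hspb6: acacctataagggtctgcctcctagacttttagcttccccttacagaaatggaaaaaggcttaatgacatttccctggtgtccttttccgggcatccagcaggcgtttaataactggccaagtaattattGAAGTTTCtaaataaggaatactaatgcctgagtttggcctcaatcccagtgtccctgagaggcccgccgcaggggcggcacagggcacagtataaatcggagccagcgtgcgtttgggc

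The Cryaa window held 1 half-site, 108 bases before the start, and 0 heat shock elements. Hspb1 held 2 heat shock elements, 117 and 97 bases before the start, Hspb6 held 1 at 120 bases before its second start, and Hspb3 held 1 at 224 bases. None of the windows of Hspb7, Hspb8 and the first start of Hspb6 held either motif, and the half-site was in Cryaa only among the 6 members with a window. Of all 32851 promoter windows, 16.1% held the half-site and 6.69% the heat shock element. In windows of the lens list the half-site was in 15 of 26 and the heat shock element in 2 of 26, and in windows of the heat shock list they were in 2 of 47 and 10 of 47. Several gamma crystallins of the lens list are near copies of each other, so their windows are not separate observations. A match is a run of letters and not a measured binding site.

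Cryaa, the alpha-A chain that is made mostly in lens, varied more between arrays than the other members. Its brighter probe, A_55_P2007646 (chromosome 17), read 11.28, 11.22, 13.17 and 14.21 under the Mrp4-null label and 14.25, 15.31, 12.73 and 13.36 under the wild-type label. Arrays 1 and 2 labelled Mrp4-null were low, wild-type array 2 was high, and the groups overlapped. The signal spanned 17.0-fold from the lowest to the highest array. The second probe, A_55_P2007645, was dimmer and was well above background on 2 of 4 arrays labelled Mrp4-null and 4 of 4 wild-type arrays. It was retained only through the wild-type arrays, where it is high, so a lower level under the Mrp4-null label was favored by the filter and its values are no separate support for Cryaa. It read 2.99, 3.24, 5.74 and 6.67 against 7.13, 7.94, 5.03 and 5.83, the same order of arrays but for the lowest pair. The correlation of both Cryaa probes over the 8 arrays was r = 0.994. No spot on any array was saturated.

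Cryab, the alpha-B chain, a lens protein that glia and muscle also make, varied in step with Cryaa over a smaller range. Probe A_55_P1964408 (chromosome 9) read 12.01, 12.13, 12.45 and 12.65 under the Mrp4-null label and 12.58, 13.39, 12.22 and 12.44 under the wild-type label. Wild-type array 2 was again the highest, the lowest values were those of arrays 1 and 2 labelled Mrp4-null, and the groups overlapped. Its range was 2.59-fold.

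Hspb1, the stress-inducible Hsp25 that binds actin filaments, had a narrow range. Its probe (A_55_P2039284, chromosome 5) read 11.40, 11.25, 11.34 and 11.20 under the Mrp4-null label and 10.91, 11.07, 11.19 and 11.24 under the wild-type label, with wild-type array 1 the lowest. The groups overlapped, and the range was 1.40-fold. Hspb6, the Hsp20 of smooth muscle and heart, was steadier still. Its brighter probe (A_55_P2039289, chromosome 7) read 13.06, 13.23, 13.33 and 13.04 against 13.24, 13.03, 13.16 and 12.96, a 1.30-fold range, and its second probe (A_51_P322022) spanned 1.35-fold. That second probe read 9.69, 9.62, 9.84 and 9.61 against 9.84, 9.60, 9.58 and 9.41. Both Hspb6 probes were highest on array 3 labelled Mrp4-null and, among the wild-type arrays, on array 1.

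Hspb8, the Hsp22 that works with Bag3 to pass misfolded proteins to autophagy, read 8.17, 7.62, 7.94 and 8.19 under the Mrp4-null label and 8.12, 8.32, 7.89 and 8.22 under the wild-type label (A_51_P464387, chromosome 5). Array 2 labelled Mrp4-null was the lowest and the groups overlapped. Hspb2 and Hspb3 form a complex with each other in muscle, and Hspb2 also binds the myotonic dystrophy kinase. Hspb2 (A_52_P222624, chromosome 9) read 6.62, 6.59, 6.21 and 6.41 against 6.41, 6.98, 6.50 and 6.79. Hspb3 (A_51_P419007, chromosome 13) read 6.90, 7.02, 6.29 and 6.71 against 6.66, 6.94, 6.94 and 6.86. Array 3 labelled Mrp4-null was the lowest for both genes, and the groups overlapped for both. Hspb7, the small heat shock protein of heart muscle, was not retained. Of its 2 probes on chromosome 4, A_51_P346445 was well above background on 0 arrays and A_55_P2830306 on arrays 1 and 3 labelled Mrp4-null only, with processed signals of 17.4 and 15.3 before normalization, so Hspb7 was not among the probes tested.

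**Figure D1:**
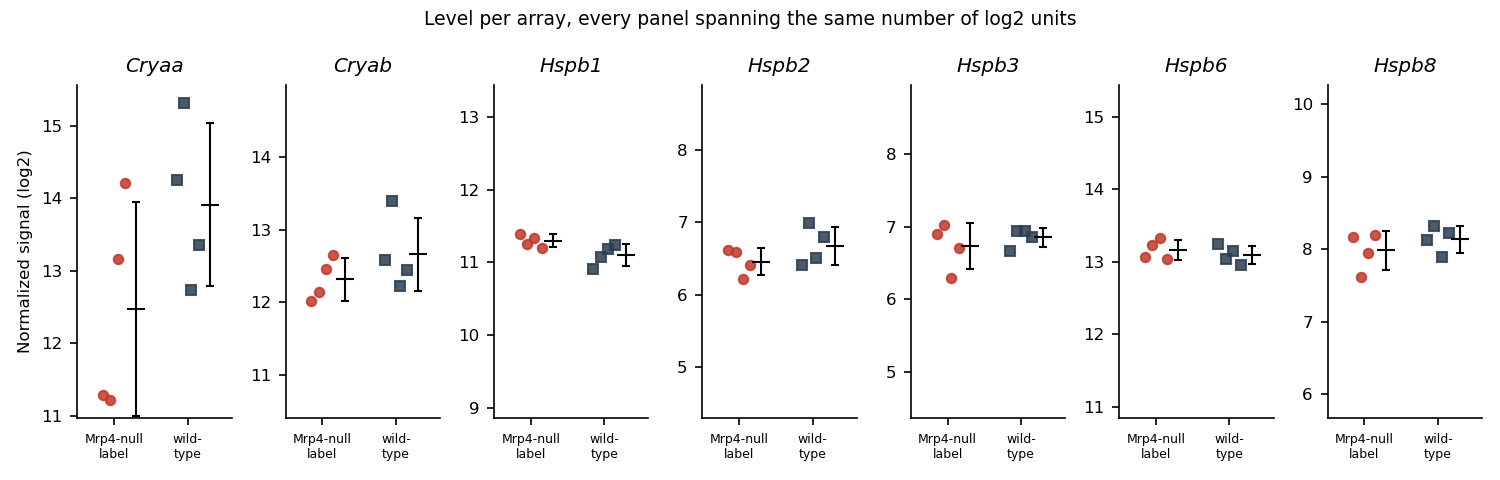
Normalized log2 signal of the brighter probe of each retained member on the 4 arrays labelled Mrp4-null (red circles) and the 4 wild-type arrays (dark squares), with the mean and SD of each group in black; every panel spans the same number of log2 units. Cryaa spreads over much of its panel and Cryab over less, the other 5 genes stay within 1 log2 unit, and the groups overlap in every panel.

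The first comparison asked whether any member differed between genotypes. None of the 9 member probes was called changed by limma at a 1.5-fold or larger change with a Benjamini-Hochberg adjusted p under 0.05, against 202 of all 37085 probes (0.545%). None had an unadjusted p under 0.05 either (6.46% of all probes), and the arrays of the genotypes did not separate for any member (4.79% of all probes did). Fitted differences were lower on the arrays labelled Mrp4-null for 6 probes and higher for 3, beside 19746 lower of all 37085 probes. Their median was -0.15 log2 units beside -0.01 over all probes. The count of 6 and the median include the dim Cryaa probe, which the filter favored to be lower. Cryaa and Hspb6 each count with 2 probes, so neither value is read as a result. The differences of the Cryaa probes had the widest intervals. The brighter Cryaa probe averaged 12.47 ± 1.47 (SD, n = 4) under the Mrp4-null label and 13.91 ± 1.12 (SD, n = 4) under the wild-type label, a difference of -1.44 log2 units with a 95% interval of -3.21 to 0.32 (limma adjusted p = 0.915). The difference of the dim probe, with 2 arrays labelled Mrp4-null at background, was -1.82 (limma adjusted p = 0.890) and depended on the background correction, at -0.70 with the normexp method. The local pooled error test named in the methods, which takes its error from probes of like brightness and not from the probe's own replicates, called both Cryaa probes lower and no other member (232 of all probes, 0.626%, and 0.329% lower), with adjusted p = 1.06e-20 at the brighter one. The call of the dim probe is subject to the filter as stated. That test makes no use of the SD of Cryaa within each genotype given above.

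For the remaining members the intervals were narrower. Cryab averaged 12.31 ± 0.29 (SD, n = 4) against 12.66 ± 0.51 (SD, n = 4), a difference of -0.34 with an interval of -0.92 to 0.23 (limma adjusted p = 1.00). Without wild-type array 2 it was -0.10. Hspb1 had a difference of 0.19 (interval -0.03 to 0.41, limma adjusted p = 0.862), and of 0.13 without wild-type array 1. The differences of Hspb2, Hspb3 and Hspb8 were -0.22, -0.12 and -0.15. Single arrays decided much of these values, since Hspb2 was at -0.11 without wild-type array 2, Hspb3 at 0.025 without array 3 labelled Mrp4-null, and Hspb8 at -0.032 without array 2 labelled Mrp4-null. The differences of the Hspb6 probes were 0.07 and 0.08, and they were 0.013 without array 3 labelled Mrp4-null and 0.019 without wild-type array 4. The 95% intervals of all 5 probes include 0. The lens score of each array was then added to the fit as a covariate. With it the difference was 0.26 (SE 0.24) for the brighter Cryaa probe and 0.20 (SE 0.39) for the dim one. It was 0.17 (SE 0.15) for Cryab and 0.06 (SE 0.15) for Hspb8, and kept its sign for the other 5 probes. Those that changed sign had a limma adjusted p of 0.692 to 0.876, so no direction is given for them.

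**Figure D2:**
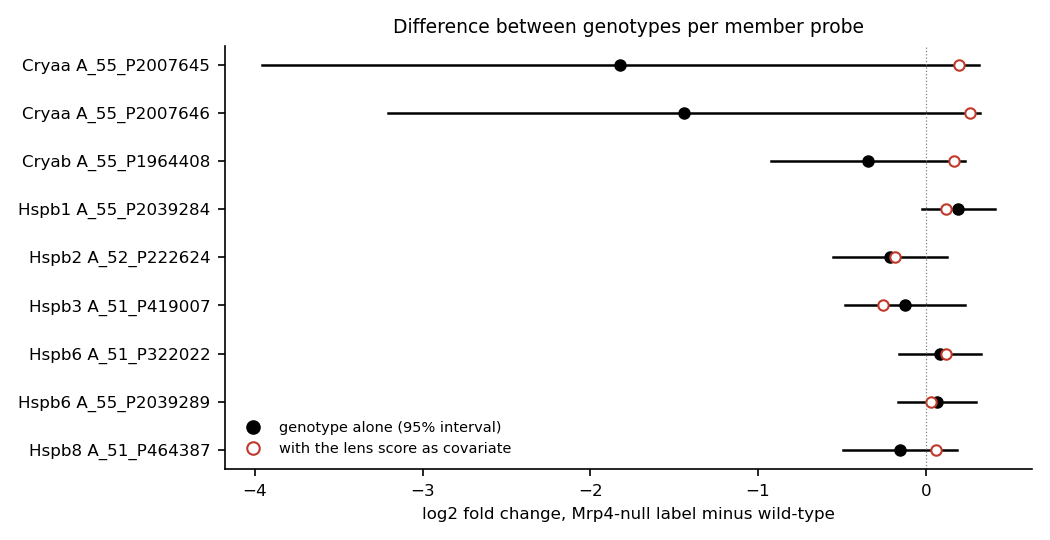
Log2 fold change of each retained member probe, arrays labelled Mrp4-null minus wild-type, from limma with its 95% interval (black), and the same difference with the lens score in the fit (open red circles). Every black interval includes 0, and the 2 Cryaa probes, Cryab and Hspb8 move from below 0 to above it when the lens score is added. The circles carry no interval, and the limma adjusted p of the differences that moved was 0.692 to 0.876.

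The second comparison asked which members followed the lens score. The lens slope is the change in a probe's log2 signal per log2 unit of the lens score, fitted by limma over the 8 arrays without regard to genotype. Across the array 18 of 37085 probes (0.0485%) followed the score at an adjusted p under 0.05, all of them upward. Both Cryaa probes were among them, beside 13 probes of the lens list and 3 others. At an unadjusted p under 0.05, with the dim Cryaa probe left aside, positive slopes were found for 3 of the 7 genes, Cryaa, Cryab and Hspb8, against 4.65% of all probes, and negative ones for 0, against 4.14%. Of the 13 lens list probes, 11 entered the score and 2 were second probes of genes in it, so their slopes are no separate result. No member entered the score. Cryaa rose with the score with a slope of 1.46 (SE 0.11, limma adjusted p = 0.00217) at the brighter probe. The dim probe had a slope of 1.77 (limma adjusted p = 0.00788), which rests on low arrays at background, was 1.03 with the normexp method and is not counted as support. The order of the arrays by the brighter Cryaa probe was the same as by the lens score. With genotype in the fit the brighter probe had a slope of 1.55 (SE 0.13, limma adjusted p = 0.0177), and within genotypes its correlation with the score was r = 0.975. When each array was left out in turn, the brighter probe stayed past the threshold every time, with an adjusted p from 0.00372 to 0.0455. Its call was lost, with slopes of 1.79, 1.42 and 1.49, when dim probes were not filtered, when the 2 arrays with the lowest 75th percentile of signal were left out, and with the replicate number as a block, and the adjusted p reached 0.446.

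Cryab had a lens slope of 0.41 (SE 0.07, 95% interval 0.26 to 0.56), which did not pass the threshold over all probes (limma adjusted p = 0.330). Its correlation with the lens score was r = 0.923 (exact permutation p = 0.000496) and rho = 0.929 (exact permutation p = 0.00223), and the adjusted p of r over all probes was 0.578. It was r = 0.922 without the 2 arrays farthest from the median score and r = 0.923 within genotypes. Without wild-type array 2 the slope was 0.28. Under all alternatives of the processing run, arrays left out included, the slope of Cryab was positive, from 0.28 to 0.60.

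The other members showed flatter slopes, none of them past the threshold. Hspb8 had a slope of 0.18 (SE 0.06, limma adjusted p = 0.526), with r = 0.744 (exact permutation p = 0.0327) and rho = 0.714 (exact permutation p = 0.0576). The adjusted p of r over all probes was 0.586, and r was 0.332 without the 2 farthest arrays and 0.709 within genotypes. The slope was positive with each array left out in turn, from 0.10 to 0.24, and was 0.20 with genotype in the fit (limma adjusted p = 0.341). Hspb1 had a slope of -0.11 with an interval of -0.23 to 0.01 (limma adjusted p = 0.526), with r = -0.686 (exact permutation p = 0.0568) and rho = -0.738 (exact permutation p = 0.0458), and over all probes the adjusted p of r was 0.586. Without the 2 farthest arrays r was -0.776, within genotypes it was -0.469, and the slope with genotype in the fit was -0.07 (limma adjusted p = 0.551). The slope of Hspb2 was 0.09, that of Hspb3 was -0.03, and those of the Hspb6 probes were -0.05 and -0.01, with intervals that include 0. That of the brighter Hspb6 probe ran from -0.072 without array 1 labelled Mrp4-null to -0.031 without array 2 labelled Mrp4-null. The signs of Hspb2, Hspb3 and the second Hspb6 probe turned when single arrays were left out, so no direction is given for them. The lens score had a correlation of r = 0.489 (exact permutation p = 0.212) and rho = 0.524 (exact permutation p = 0.197) with the 75th percentile of signal, a measure of overall brightness.

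**Figure D3:**
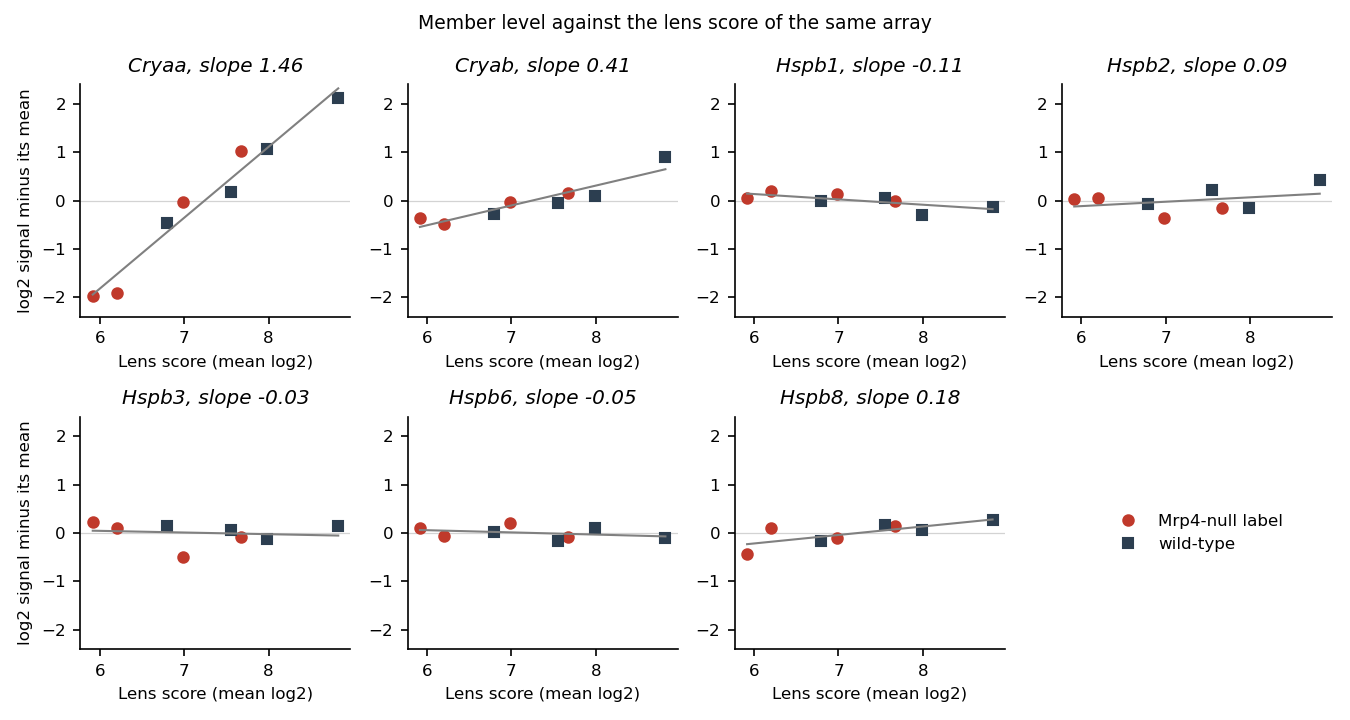
Normalized log2 signal of each member minus its own mean over the 8 arrays (vertical axis) against the lens score of the same array (horizontal axis), for arrays labelled Mrp4-null (red circles) and wild-type (dark squares), with the fitted slope in grey and in the panel title. Cryaa has a slope of 1.46 and Cryab of 0.41, and the slopes of the Hspb genes lie between -0.11 and 0.18.

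Lens and retinal genes gave the scale for these slopes. The 18 lens genes had slopes from 0.01 for Lenep, a gene of lens epithelium, to 2.50 for Mip, the water channel of lens fibers, with a median of 1.01. The score is the mean of these 18 genes, so the mean of their slopes is 1 by construction and is no result. The 59 genes of Muller glia, rods, cones, bipolar, amacrine, horizontal and ganglion cells had slopes from -0.20 for Lhx1, a horizontal cell transcription factor, to 0.28 for Gpr37, a glial receptor, and 0 of them were called. Cryaa lay among the lens genes, with 4 of 18 above its brighter probe and 14 below. Cryab lay above all 59 of these genes and above 4 of 18 lens genes, with the other 14 lens genes above it. With the 32 genes of astrocytes, endothelium, microglia and smooth muscle or pericytes added, a set widened after the values were seen, 1 of 91 genes lay above Cryab, endothelial Tek with a slope of 0.51, and 0 of the 91 were called. The slopes of Hspb1, Hspb2, Hspb3, Hspb6 and Hspb8 all lay within the range of the retinal genes. Hspb1 was near its lower end, with 3 of 59 genes below, and Hspb8 near its upper end, with 6 of 59 above. Hspb2 and Hspb8 also lay above 1 of 18 lens genes. Between members, the slope of Cryaa exceeded that of Cryab by 1.05, and the slope of Cryab exceeded that of Hspb6 by 0.46, that of Hspb1 by 0.52 and that of Hspb2 by 0.32. These pairs were picked after the slopes were seen and carry no test.

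**Figure D4:**
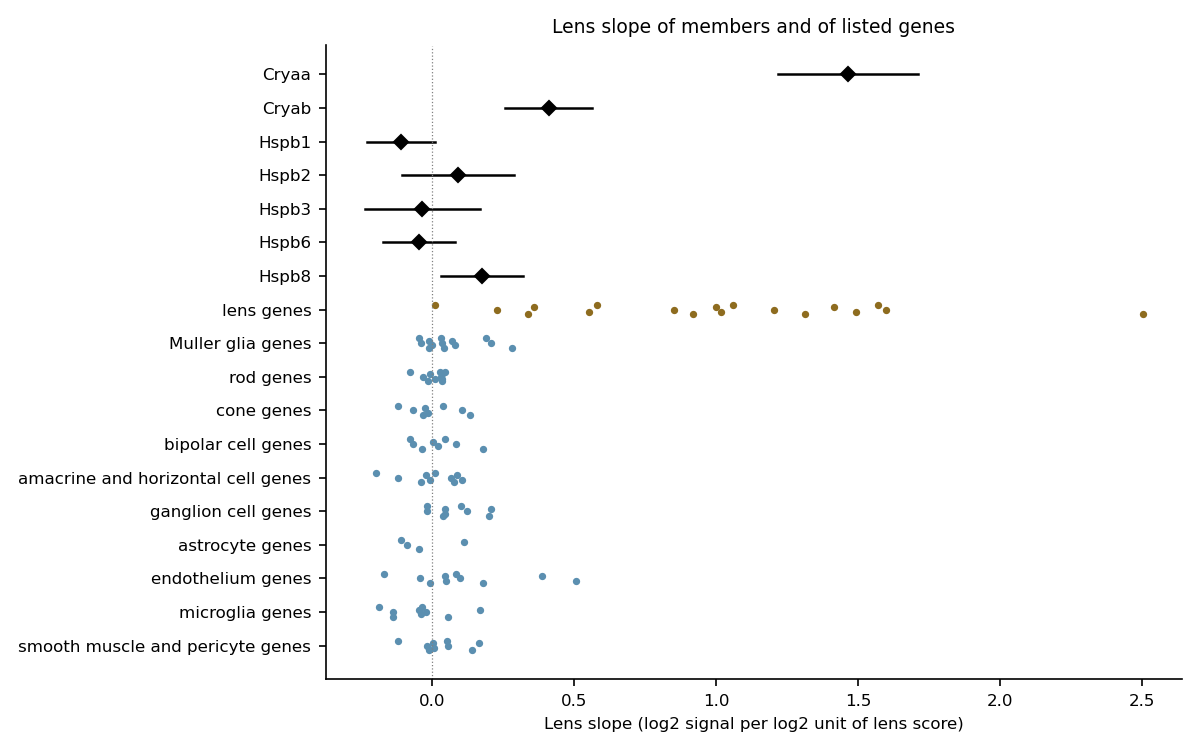
Lens slope (log2 signal per log2 unit of lens score) of the brighter probe of each member with its 95% interval (black diamonds), of each lens gene (brown points) and of each listed gene of 10 groups of cells of the retina and its vessels (blue points). Cryaa lies among the lens genes, Cryab at 0.41 lies above the blue points except endothelial Tek at 0.51 and below most lens genes, and the 5 Hspb genes lie in the span of the retinal points. The lens genes make up the score, so their mean slope was fixed in advance.

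The spread between arrays ordered the members in much the same way. The SD over the 8 arrays was 1.43 for the brighter Cryaa probe and 1.76 for the dim one, beside a median of 1.02 for the lens genes. It was 0.43 for Cryab, between 0.23 and 0.24 for Hspb2, Hspb3 and Hspb8, 0.15 for Hspb1 and 0.13 and 0.14 for the Hspb6 probes. The median was 0.13 for the 59 retinal genes and 0.19 over all retained probes, and the most variable retinal gene, Gpr37, had an SD of 0.44. Of the 59 retinal genes, 1 had a larger SD than Cryab, and 8 of the 91 genes of the widened set did, up to 0.63 for the astrocyte gene Gfap, so the spread of Cryab alone does not set it apart from genes of the retina.

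The signals of Cryab and Cryaa were also set against each other on the linear scale, a fit chosen after the values were seen. Over the 8 arrays the Cryaa signal went from 2390 to 40625 and the Cryab signal from 4130 to 10716. The least-squares line had a slope of 0.161 Cryab units per Cryaa unit and met the axis of no Cryaa signal at a Cryab signal of 3762, near the values of arrays 1 and 2 labelled Mrp4-null. With each array left out in turn the intercept was 3639 to 4141 and the slope 0.117 to 0.165. Brightness per transcript differs between probes, so neither value is a ratio of molecules. Cryab and Cryaa had a correlation of r = 0.909 on the log2 scale (exact permutation p = 0.000198) and rho = 0.929 (exact permutation p = 0.00223), 1 of 36 pairs of member probes computed. The limma slope of log2 Cryab on log2 Cryaa was 0.27 (SE 0.048, n = 8) and did not pass the threshold over all probes (adjusted p = 0.639).

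**Figure D5:**
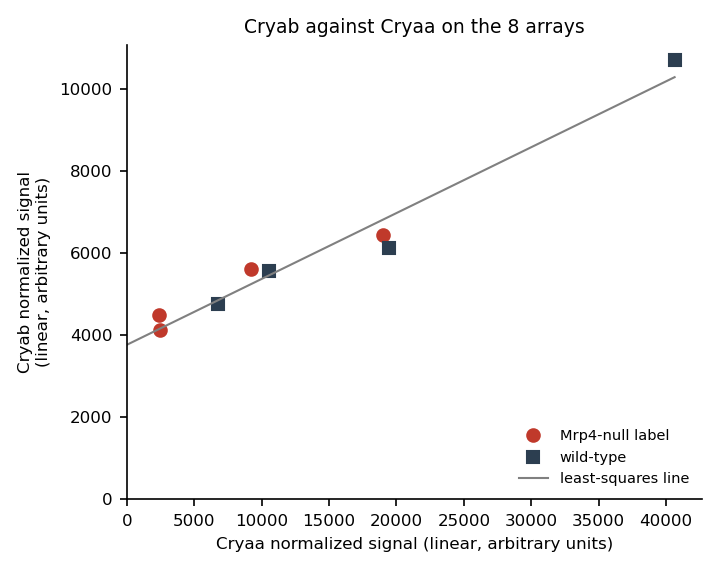
Normalized signal of Cryab (vertical axis) against that of Cryaa (horizontal axis) on linear scales in arbitrary units, for arrays labelled Mrp4-null (red circles) and wild-type (dark squares), with the least-squares line in grey. The line meets the vertical axis at 3762, and the lowest Cryab signal is 4130.

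Cryab and Hspb2 are neighbours on chromosome 9, with Hspb2 inside the annotated span of Cryab. They had a correlation of r = 0.448 (exact permutation p = 0.267) and rho = -0.119 (exact permutation p = 0.793), and r was -0.339 without the 2 arrays farthest from the median of Cryab.

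The genes most like each member, by Pearson's r over the 8 arrays among 16083 named genes, were all lens genes only for Cryaa. For its brighter probe they were Cryba2 (r = 0.998), Crybb2 (r = 0.998) and Cryba4 (r = 0.993), beta crystallins of the lens fiber, and 10 of its 20 nearest genes were in the lens list. Cryab had Tmem40 (r = 0.973), Thumpd3 (r = 0.966) and Grifin (r = 0.964), a lens galectin, with 8 of its 20 nearest genes in the lens list. The nearest genes of Hspb1 were Wdr38, Ppm1b and Hexim1, those of Hspb2 were C1qtnf7, Mrps18b and Glrb, and those of Hspb3 were Snrnp40, Slc38a6 and Rex1bd. Those of the brighter Hspb6 probe were Nrxn2, Abcc5 and Acsf3, and those of Hspb8 were Gabrb2, Hpgd and Lrrn3. For each of these members 0 of the 20 nearest genes were in the lens list. With 8 arrays, very high correlations arise among so many genes, and these are descriptions with no p.

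The other heat shock genes include the Hsp70, Hsp90 and Hsp40 chaperones and their cofactors, the heat shock factors and further small heat shock genes such as Hspb9 and Hspb11. In this list 40 of 43 were retained, and 0 were called in either direction between genotypes and 0 followed the lens score. Their median difference was -0.01 and their median lens slope 0.03, beside -0.0093 and -0.0039 over all probes. The lowest difference was that of Hspa1a, a stress-inducible Hsp70, at -0.36 (SE 0.09, limma adjusted p = 0.232), and the highest that of Hsph1, an Hsp70 exchange factor, at 0.22 (limma adjusted p = 0.891). The lens slopes ran from -0.10 for Hsf1, the heat shock transcription factor, to 0.14 for Hspa13. Bag3, the partner of Hspb8, had a difference of -0.03 and a slope of 0.04, and Hsf4, the heat shock factor of lens, -0.14 and 0.05.

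Markers of other cells that make members were read beside them. Each list of other cells was read as a count of genes called by limma and as the range of its mean log2 signal. Striated muscle, a source of Hspb2, Hspb3 and Hspb7, had 6 of 12 genes retained and 0 called, at 6.24 to 6.74 on the arrays labelled Mrp4-null and 6.21 to 6.53 on the wild-type arrays. Smooth muscle and pericyte genes, which go with Hspb6, had 9 of 10 retained and 0 called, at 7.89 to 8.10 against 7.94 to 8.06. The astrocyte list had 4 of 4 retained and 0 called, at 8.34 to 8.76 against 8.24 to 8.54, and the Muller glia list 13 of 13 and 0 called, at 12.85 to 13.09 against 12.97 to 13.16. The groups overlapped in these 4 lists. The list of ciliary body and iris, tissue that adjoins the lens, had 7 of 7 genes retained and 0 called by limma, but its groups did not overlap, at 11.27 to 11.39 under the Mrp4-null label with the highest wild-type array at 11.24. Its median difference was 0.02, with 5 of 7 genes above 0, and its summed signal overlapped, at 48673 to 64085 against 51315 to 64071. Its Slc13a4, an anion transporter, had a difference of 1.18 (limma adjusted p = 0.101) and was called by the local pooled error test, while the differences of the other 6 genes lay between -0.083 and 0.38. Over all probes 4.79% did not overlap between genotypes, so the separation of this list mean is not read as a result. The part of this list in the values of the members was not tested. The lens list had 18 of 26 retained, 17 of them lower on the arrays labelled Mrp4-null, with 0 called by limma and 11 by the local pooled error test. Among all 37085 probes 19746 were lower, and 0.545% were called by limma and 0.626% by the local pooled error test. Of the 17 genes that passed the filter in both genotypes, 16 were lower, with 0 called by limma and 10 by the local pooled error test. Its part in the differences of Cryaa and Cryab was not tested beyond the fit with the lens score.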

How the data were processed

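The authors deposited 1 Agilent Feature Extraction 11.0.1.1 file per array with the processed signal intensity of each spot, background-subtracted and detrended within the array and not normalized between arrays, and a table of values that equals the mean processed intensity per probe on a linear scale, with column medians of 60.2 to 86.3. Per the file headers, the array design used build mm9, so the GRCm38.p6 gene table gave no coordinates of probes and served for names (58.3% of probes), chromosomes and which genes neighbour each other. The promoter windows are RefSeq sequences with their own GRCm38.p6 coordinates.

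Spots marked as outliers were left out, spots of 1 probe were averaged on the log2 scale, probes entered if they stood well above background throughout at least 1 genotype (with 3 or more measured arrays there and 2 or more in the other), and values were quantile normalized. Depth does not apply to arrays, and 8 arrays limit the precision. R 4.3.3 with limma 3.58.1 (lmFit and eBayes, Benjamini-Hochberg over all retained probes) was used, in place of the methods' local pooled error test, which was rebuilt with intensity bins of 0.01 and a spline of 10 degrees of freedom as an alternative. Exact permutation tests used all 70 groupings or 40320 orders of the arrays. Scripts were tested on simulated data. The lens score used 18 lens genes, members left out, 1 probe a gene with the highest mean signal, which also represents a member with 2 probes. Named genes were all members, Abcc4, the 3 genes most like each member and, of the lens and heat shock lists, those called or extreme. Bag3, Hsf4, Gpr37, Lhx1, Tek, Gfap and Slc13a4 were named after their values were seen. The members and lists were chosen with earlier results of these data known. No 2 arrays held identical values (r from 0.981 to 0.997). Alternatives changed the normalization, background, filter, outlier spots, value table, variance model, test, threshold, covariate, lens genes, replicate block and arrays used.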

Additional observations from a re-analysis of the deposited data

How the results depend on the processing

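The absence of a limma call for the members held under all alternatives that used limma with both thresholds, while the local pooled error test and a fold change of 1.5 with no test each called 2 member probes, both of Cryaa. For all probes, where 202 were called, a fold change alone gave 699, the lens score as a covariate 121, and leaving out the 2 arrays with the lowest 75th percentile 128. Leaving out single arrays gave 117 (without wild-type array 4) to 188 (without array 2 labelled Mrp4-null), with 131 without wild-type array 2 and 129 without wild-type array 3, and 0 member probes each time. The lens score difference was -1.49 (without wild-type array 3) to -0.75 (without wild-type array 2), with exact permutation p from 0.0571 to 0.257. Of the 2 member probes that followed the lens score, 0 did with no filter on dim probes or without the 2 arrays of lowest 75th percentile, and 1 did with the filter in both genotypes or with genotype as a covariate. Leaving out single arrays kept 1 (without array 2 labelled Mrp4-null, wild-type array 1 or wild-type array 3) to 2 of them. For all probes, where 18 followed, no filter gave 7, the same 2 arrays left out 0, and single arrays left out 9 (without wild-type array 2) to 20, with 11 without array 2 labelled Mrp4-null. The cause of these shifts was not tested, apart from the smaller number of arrays.

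Some values changed sign. With the lens score as covariate the differences were 0.26 and 0.20 for the Cryaa probes, 0.17 for Cryab and 0.063 for Hspb8 (limma adjusted p = 0.692 to 0.876). With genotype as a covariate the slope of the second Hspb6 probe was 0.034, and without the 2 arrays of lowest 75th percentile that of Hspb3 was 0.077. Single arrays left out gave ranges of -0.22 to 0.025 for the Hspb3 difference, and for slopes -0.036 to 0.012 for the second Hspb6 probe, -0.14 to 0.029 for Hspb3 and -0.049 to 0.14 for Hspb2. Same-numbered arrays did not deviate together (correlations -0.29, -0.69, 0.03 and 0.41), so the replicate number, which is also the slide column, does not pair them. With it as a replicate block, 71 probes were called between genotypes and 0 of them members, 0 probes and 0 members followed the lens score, and the slope of the second Hspb6 probe was 0.024. With 4 arrays a genotype, the 95% interval of the Cryaa difference ran from -3.21 to 0.32, and for dim probes such as those of Hspb7 signal over background set the limit.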
